A study of Mus musculus with 1 sample.

Results

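The Ms4a family paralogues Ms4a2, Ms4a3, Ms4a4c, Ms4a6b, Ms4a6c and Ms4a6d were followed across the myeloid cells of 1 single-cell RNA-seq library. The 6 genes were found by their symbols among the 32285 genes of the count matrix, which holds 19 symbols that start with Ms4a. The library came from lineage-negative, Kit-positive bone marrow of the femora and tibiae of C57BL/6 control mice that carry floxed Brd9 alleles (Brd9fl/fl) and no Cre. Per the labels they had received 3 doses of 20 mg/kg polyinosinic-polycytidylic acid (pIpC), an inducer of interferon, and cells were taken 8 weeks later. The sample labels describe CD45.2(+) donor cells in CD45.1(+) recipients injected 4 weeks after transplantation, whereas the series text speaks of primary mice injected 4 weeks after birth, and which of these applies was not settled. How many mice were pooled is not given in the sources used here. The extraction label names a kit for unstranded bulk RNA, but the matrix is a table of UMIs per barcode with a Cell Ranger header, as the 10x Chromium 3′ method gives. The methods also name Brd9-deleted cells (Mx1-Cre;Brd9fl/fl), which were not analysed here.

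The MS4A proteins cross the membrane several times and are encoded by a cluster of duplicated genes. Ms4a2 encodes the β chain of the high-affinity IgE receptor, which basophils and mast cells use to respond to allergens. Ms4a3 marks granulocyte-monocyte progenitors and is known as a cell cycle regulator that binds the phosphatase encoded by Cdkn3, while Ms4a4c, Ms4a6b, Ms4a6c and Ms4a6d are known mostly from monocytes, macrophages and lymphocytes.

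All 6 genes lie in 236 kb of chromosome 19 in GRCm38 (GENCODE M21), within 679 kb that hold the 19 genes. Ms4a4c (chr19:11404770-11427246), Ms4a6c (chr19:11469366-11482192) and Ms4a6b (chr19:11516512-11531256) are on the plus strand. Ms4a6d (chr19:11586604-11604849), Ms4a2 (chr19:11615523-11623719) and Ms4a3 (chr19:11629496-11640851) follow on the minus strand. Ms4a2 and Ms4a3 are direct neighbours, with 5776 bases and 0 annotated genes between them. An antisense gene overlaps Ms4a4c (Gm5692), Ms4a6c (BE692007) and Ms4a6b (Gm19261), and none overlaps the other members. Each of the 6 genes is protein-coding, and the longest coding transcript has 7 exons in Ms4a3, Ms4a4c, Ms4a6c and Ms4a6d, 8 in Ms4a6b and 6 in Ms4a2.

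The members differ in how alike they are, which bears on how well reads can be told apart. The coding sequences of Ms4a6b and Ms4a6c were 85.8% identical over 642 aligned bases, those of Ms4a6b and Ms4a6d 81.2% over 730, and those of Ms4a6c and Ms4a6d 77.4% over 647. Ms4a2 and Ms4a3 were 57.9% identical, despite lying side by side. The transcripts of Ms4a6b and Ms4a6c shared 117 stretches of 50 bases, or 2.57% of the distinct 50-base stretches of Ms4a6b and 5.85% of those of Ms4a6c. Ms4a6b and Ms4a6d shared 40, and Ms4a6c and Ms4a6d shared 0. Ms4a4c shared 135 with its closest relative Ms4a4b, which is no member but is given below. Reads from such stretches cannot be assigned to 1 gene, so the levels of Ms4a4c, Ms4a6b, Ms4a6c and Ms4a6d carry this uncertainty. In a 3′ library the transcript ends matter most, and the end of 1 coding transcript of each gene was compared. There, 53 stretches of Ms4a4c were found in Ms4a4b, 47 of Ms4a6c in Ms4a6b and 11 of Ms4a6b in Ms4a6c. Ms4a6b and Ms4a6d shared 0 at these ends. Ms4a2 and Ms4a3 shared 0 such stretches with any other member, but Ms4a2 shared 63 with Ms4a4b, or 2.10% of its own, of which 0 were at these ends.

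Promoters are shown so that the letters in front of each start can be set beside the cells that used the gene. RefSeq entries on GRCm38.p6 were matched for 5 of 6 members (Ms4a6d had none), as 250 bases before to 50 bases after the start, 5′ to 3′ on the gene's strand. Capitals mark matches, on either strand, to 4 motifs, and no 2 matches overlapped. The motif of GATA factors was searched as AGATAA, that of C/EBP factors as TTNNGCAAT, that of PU.1 as AGGAAGT and that of interferon regulatory factors (IRF) as GAAANNGAA. The windows are chr19:11623670-11623969 for Ms4a2, chr19:11640802-11641101 for Ms4a3, chr19:11407411-11407710 for Ms4a4c, chr19:11518309-11518608 for Ms4a6b and chr19:11469118-11469417 for Ms4a6c.
Ms4a2: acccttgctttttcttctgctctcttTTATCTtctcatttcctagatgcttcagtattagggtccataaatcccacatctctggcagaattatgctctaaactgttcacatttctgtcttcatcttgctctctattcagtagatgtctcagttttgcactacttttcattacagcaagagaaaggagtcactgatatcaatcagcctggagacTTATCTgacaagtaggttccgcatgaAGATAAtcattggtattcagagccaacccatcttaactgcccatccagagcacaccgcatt
Ms4a3: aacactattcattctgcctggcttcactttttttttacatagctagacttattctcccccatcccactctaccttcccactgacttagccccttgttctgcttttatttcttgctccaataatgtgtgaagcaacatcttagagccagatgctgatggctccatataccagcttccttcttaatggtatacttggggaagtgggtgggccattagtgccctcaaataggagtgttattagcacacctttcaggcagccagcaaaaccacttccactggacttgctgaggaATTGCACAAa
Ms4a6b: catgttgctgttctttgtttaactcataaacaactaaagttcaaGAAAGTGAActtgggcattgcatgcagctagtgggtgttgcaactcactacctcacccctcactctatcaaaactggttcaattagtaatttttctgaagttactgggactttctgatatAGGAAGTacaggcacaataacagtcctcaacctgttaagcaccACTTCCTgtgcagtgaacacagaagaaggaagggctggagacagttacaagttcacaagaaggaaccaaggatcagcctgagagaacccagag
Ms4a6c: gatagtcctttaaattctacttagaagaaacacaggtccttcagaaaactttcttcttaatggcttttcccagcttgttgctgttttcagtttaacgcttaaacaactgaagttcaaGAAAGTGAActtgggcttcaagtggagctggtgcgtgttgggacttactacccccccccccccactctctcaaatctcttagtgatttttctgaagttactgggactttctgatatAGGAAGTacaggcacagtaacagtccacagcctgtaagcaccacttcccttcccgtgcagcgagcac
Ms4a4c: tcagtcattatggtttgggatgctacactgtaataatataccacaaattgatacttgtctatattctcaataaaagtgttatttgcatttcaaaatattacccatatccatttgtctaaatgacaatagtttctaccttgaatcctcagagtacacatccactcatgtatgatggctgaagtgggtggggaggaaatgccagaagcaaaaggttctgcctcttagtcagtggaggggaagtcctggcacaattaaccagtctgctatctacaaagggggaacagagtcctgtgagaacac

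The Ms4a2 promoter held 3 matches to AGATAA, of which 2 were on the opposite strand. Their first bases had offsets of -224, -37 and -11 from the start. Of 32851 promoters in the RefSeq table, 11.2% held at least 1 such match and 0.107% held at least 3. The Ms4a3 promoter held 1 match to TTNNGCAAT, which 2.18% of promoters held. Its first base had an offset of 40. The Ms4a6b and Ms4a6c promoters each held a match to GAAANNGAA, spelled GAAAGTGAA in both, and at least 1 match to AGGAAGT. Of all promoters, 8.56% held the first, 9.35% the second and 0.837% both. The pair is duplicated sequence: 216 bases of the Ms4a6b and Ms4a6c windows aligned at 89.4% identity. The Ms4a4c window held none of the 4 motifs and aligned over 177 bases at 89.8% identity with that of Ms4a4b. The RefSeq start lay 2891 bases downstream of the GENCODE start of the gene for Ms4a4c and 2047 bases for Ms4a6b, so other starts of these genes were not searched. A match says only that these letters are present.

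Cells were placed in gates by the UMIs (unique molecular identifiers, 1 per captured molecule) of marker lists that contain no Ms4a gene, after thinning each cell to 5000 UMIs. The study's cell filter kept 7645 of 8817 barcodes, and 7546 of them were deep enough to thin. The granulocyte-monocyte gate, set on the primary granule genes Mpo, Elane, Prtn3 and Ctsg with nearly no marker of a later myeloid fate, held 423 cells (median 24123 UMIs). The monocyte gate (Csf1r, Ly86, F13a1, Fn1, Tgfbi, Ccr2) held 1219 cells (median 20971). The basophil-mast gate (Mcpt8, Prss34, Cpa3, Gzmb, Cd200r3, Il1rl1) held 283 cells (median 11781). A gate is a range of marker counts rather than a cell type. Of the cells in the 3 gates, in that order, 36, 184 and 8 lay less than 25% above the lower limit, and 117, 219 and 17 ungated cells lay up to 25% below it. Monocyte-gated cells still carried a median of 62 primary granule UMIs in 5000, against 140 in the granulocyte-monocyte gate and 33 in the basophil-mast gate. Of the genes that define mature mast cells, Tpsb2 and Tpsab1 had 0 UMIs and Mcpt4 1 in the 7546 cells, and Cma1 had 96, of which 76 were in the basophil-mast gate. Prss34 (23887 CPM, as defined below) and Mcpt8 (13606), proteases of basophils, led the gate, so no mature mast cell is claimed for it. A further 2158 cells were ungated and 472 passed several gates. The sort on Kit and against lineage markers comes before every share given here and removes mature cells. A UMI of the dendritic list was found at 5000 UMIs in 14.2% of granulocyte-monocyte-gated, 12.6% of monocyte-gated, 26.5% of basophil-mast-gated and 10.6% of erythroid-gated cells. Graph clustering of all cells showed the gates to be mixed: 125 and 79 of the 423 granulocyte-monocyte-gated cells fell in 2 clusters led by S100a8, with the neutrophil genes S100a9 and Cebpe and the granule gene Elane among their leading genes, where Ms4a3 was at 2099 and 2343 CPM. Of the 1219 monocyte-gated cells, 516 and 430 fell in the 2 monocyte-like clusters, 148 in an unnamed cluster with Cd7, Ly6d, Siglech and Irf8 among its leading genes, and 45 in a dendritic-like cluster led by Cd74 and H2-Aa. The same 2 monocyte-like clusters also held 41 and 61 of the granulocyte-monocyte-gated cells.

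With 1 library there was no replicate and no test was run. Levels are summed UMIs of a gene per 1000000 UMIs of the gate (CPM) with exact 95% Poisson intervals, ratios have exact conditional binomial intervals, and shares of cells have exact Clopper-Pearson intervals. These intervals cover counting error only. Erythroid-gated cells (1119 cells, median 33033 UMIs) served as cells that should lack the genes.

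Ms4a2 was the IgE receptor gene of the basophil-mast gate. Its level there was 976 CPM (944 to 1008), against 2.59 (1.71 to 3.77) in the granulocyte-monocyte gate and 2.17 (1.64 to 2.81) in the monocyte gate. The erythroid gate stood at 1.68 CPM (1.28 to 2.16). The intervals of the granulocyte-monocyte, monocyte and erythroid gates overlap, so the first 2 are read as background. The typical basophil-mast-gated cell held 12 Ms4a2 UMIs, with quartiles of 8.5 and 16. At 5000 UMIs a cell, 97.9% of these cells (95.4 to 99.2) had a UMI of it, against 1.18% (0.385 to 2.74), 0.738% (0.338 to 1.40) and 0.983% (0.492 to 1.75) in the granulocyte-monocyte, monocyte and erythroid gates. Without thinning the 4 shares were 99.6%, 3.07%, 2.38% and 3.13%. Of the small gates, the eosinophil gate (19 cells, with a median of 5 basophil-mast marker UMIs in 5000) had 108 CPM (71.7 to 156), and the T or NK gate (4 cells) had 11 UMIs of it, found in 1 cell. Of all Ms4a2 UMIs, 64.6% were in the basophil-mast gate, 23.3% in ungated cells and 7.03% in cells that passed several gates.

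Ms4a3, the progenitor gene, was shared by the granulocytic gates and the basophil-mast gate. It stood at 1381 CPM (1358 to 1404) in the granulocyte-monocyte gate, 912 (882 to 944) in the basophil-mast gate and 406 (399 to 414) in the monocyte gate. Cells of the neutrophil gate (421 cells, set on Cebpe, Fcnb, S100a8 and other secondary granule genes) had the highest level, 2366 CPM (2333 to 2399). Outside the granulocytic, eosinophil, monocyte and basophil-mast gates, no gate with 20 or more cells passed 27.3 CPM, the value of the megakaryocyte gate, and the erythroid gate was at 15.4. At 5000 UMIs a cell, 97.9% of granulocyte-monocyte-gated (96.0 to 99.0), 93.3% of basophil-mast-gated (89.7 to 95.9), 63.6% of monocyte-gated (60.8 to 66.3) and 5.27% of erythroid-gated cells (4.04 to 6.75) had a UMI of it. The unthinned shares were 100%, 95.1%, 79.0% and 20.4%. Cells of the same gate differed, from quartiles of 1 and 13 UMIs a cell in the monocyte gate to 18.5 and 48 in the granulocyte-monocyte gate. At equal depth, cells with basophil-mast markers thus carried Ms4a3 more often than cells with monocyte markers.

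**Figure D1:**
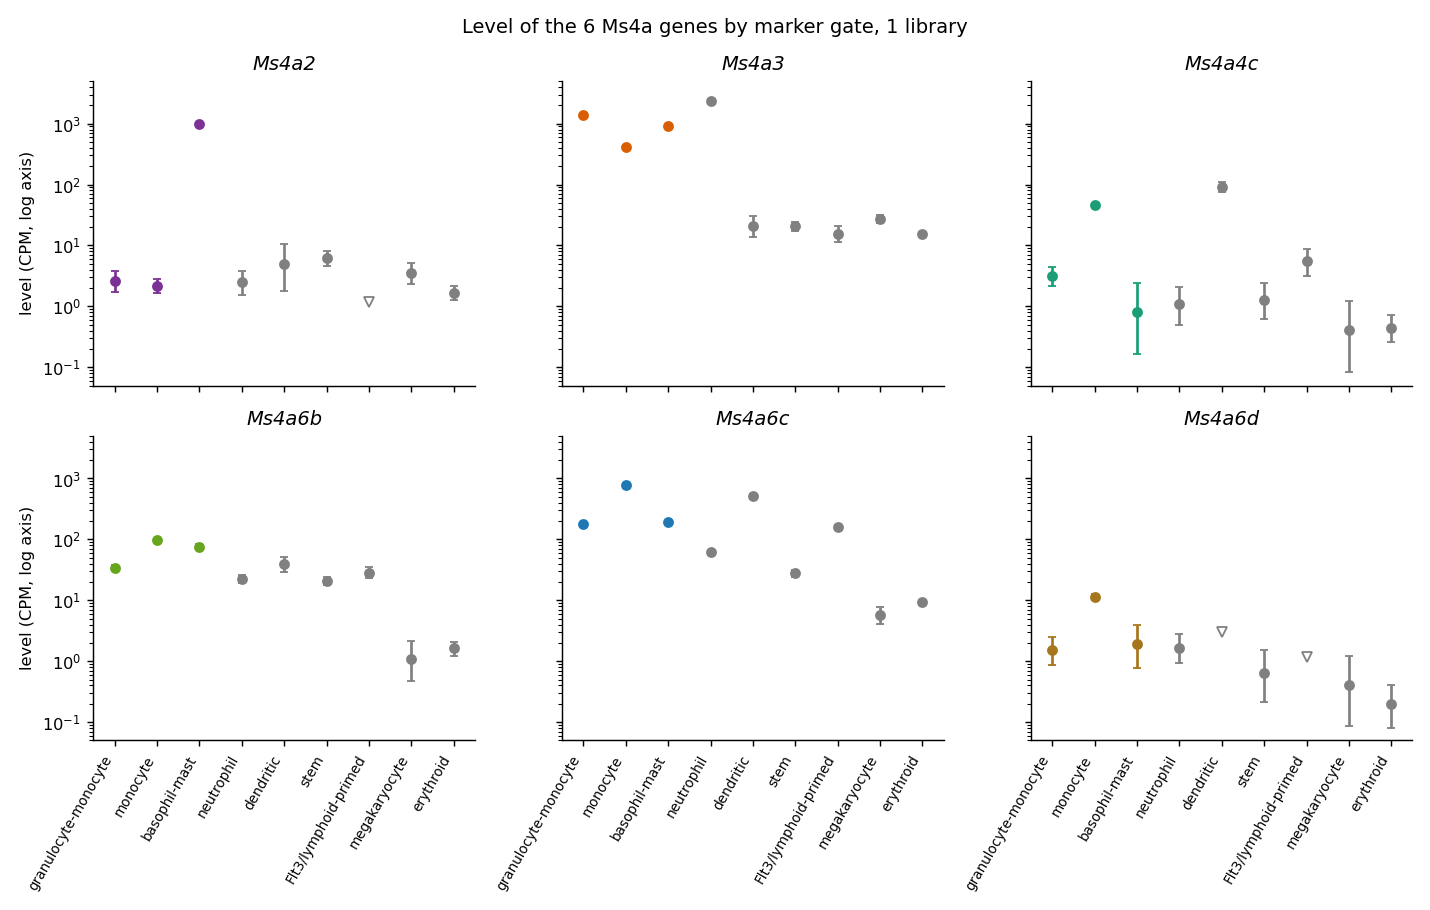
Level of each Ms4a gene (CPM, log axis) in the 9 marker gates with at least 20 cells, as points with exact 95% Poisson intervals, coloured for the 3 compared gates and grey for the rest. Open triangles are upper limits for gates with 0 UMIs. Ms4a2 stands at 976 CPM in the basophil-mast gate and at 6.21 or less elsewhere, while Ms4a3 is at 406 CPM or more in 4 gates.

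Ms4a6c was the most abundant of the monocyte-side members. It stood at 771 CPM (760 to 781) in the monocyte gate, 189.5 (176 to 204) in the basophil-mast gate and 179 (171 to 187) in the granulocyte-monocyte gate, against 9.22 (8.25 to 10.3) in the erythroid gate. At 5000 UMIs a cell, 97.0% (95.9 to 97.9), 59.0% (53.0 to 64.8) and 45.6% (40.8 to 50.5) of cells had a UMI of it in that order, and 3.31% (2.34 to 4.53) of erythroid-gated cells. Unthinned, these shares were 99.9%, 83.7%, 80.4% and 9.12%. The monocyte-gated cells held a median of 16 UMIs of it, and the cells of the other 2 gates a median of 2. Ms4a6c was thus present in all 3 gates and several-fold higher in the monocyte gate. The part of the granulocyte-monocyte level that came from cells in the monocyte-like clusters was not tested. The dendritic gate (93 cells) came second with 508 CPM (469 to 549), and the Flt3 and lymphoid-primed gate (185 cells) had 158 (144 to 172). In the clusters that held most monocyte-gated cells, Ms4a6c was at 752 and 627 CPM in the monocyte-like pair, 665 in the one with Siglech and 751 in the dendritic-like one.

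Ms4a6b, whose promoter resembles that of Ms4a6c, was spread more evenly. Its level was 97.2 CPM (93.5 to 101) in the monocyte gate, 74.5 (65.9 to 83.8) in the basophil-mast gate and 33.9 (30.5 to 37.7) in the granulocyte-monocyte gate, with 1.62 (1.23 to 2.10) in the erythroid gate. It was also present in the stem gate (749 cells) at 20.7 CPM (17.6 to 24.2), 12.8-fold (9.41 to 17.6) above the erythroid gate. The shares of cells with a UMI at 5000 UMIs were 37.2% (34.4 to 39.9), 30.4% (25.1 to 36.1), 16.8% (13.3 to 20.7) and 0.804% (0.368 to 1.52), and unthinned 81.5%, 55.5%, 50.6% and 3.31%. Ms4a6b and Ms4a6c were therefore both found in all 3 gates, but differed in how far the monocyte gate stood above the others.

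Ms4a4c was a gene of the monocyte and dendritic gates. Its level was 46.4 CPM (43.9 to 49.1) in the monocyte gate, 3.16 (2.18 to 4.44) in the granulocyte-monocyte gate and 0.816 (0.168 to 2.38) in the basophil-mast gate, which rests on 3 UMIs. The erythroid gate was at 0.447 (0.256 to 0.726), so the basophil-mast level is read as background. The dendritic gate was higher than the monocyte gate, at 91.0 CPM (74.9 to 110) and a ratio of 1.96 (1.60 to 2.38). By cluster, the level was 34.4 and 37.0 CPM in the monocyte-like clusters, 41.7 in the one with Siglech and 103 in the dendritic-like one. At 5000 UMIs, 20.8% of monocyte-gated cells (18.5 to 23.1) had a UMI of it, against 1.18% (0.385 to 2.74), 1.06% (0.219 to 3.07) and 0.179% (0.0217 to 0.644) of granulocyte-monocyte-gated, basophil-mast-gated and erythroid-gated cells. Unthinned, the 4 shares were 52.1%, 6.86%, 1.06% and 1.34%.

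Ms4a6d was the rarest member, with 465 UMIs in the 7546 cells. Of these, 63.7% were in the monocyte gate, at 11.3 CPM (10 to 12.6). The granulocyte-monocyte gate had 1.53 (0.877 to 2.49), the basophil-mast gate 1.90 (0.765 to 3.92) and the erythroid gate 0.196 (0.0786 to 0.403). In contrast to Ms4a4c and Ms4a6c, it had 0 UMIs in the dendritic gate, where 3 UMIs would be 2.44 CPM. By cluster, its level was 12.1 and 10.4 CPM in the monocyte-like clusters, 1.8 in the one with Siglech and 2.1 in the dendritic-like one. At 5000 UMIs, 5.66% of monocyte-gated cells (4.43 to 7.11) had a UMI of it, against 0.473% (0.0573 to 1.70), 0.707% (0.0857 to 2.53) and 0% of granulocyte-monocyte-gated, basophil-mast-gated and erythroid-gated cells. The last share, 0 of 1119 cells, has an upper limit of 0.329% at this depth, and unthinned the 4 shares were 17.6%, 3.55%, 2.47% and 0.536%.

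**Figure D2:**
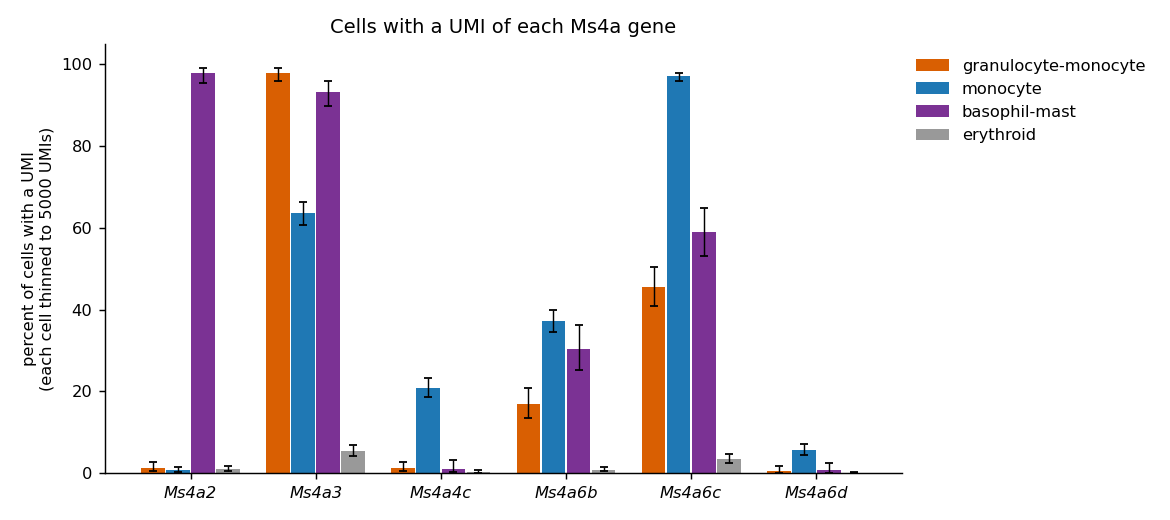
Percent of cells with a UMI of each Ms4a gene in the 3 compared gates and in the erythroid gate, with each cell thinned to 5000 UMIs and bars from 0. Error bars are exact 95% Clopper-Pearson intervals. Ms4a2 marks 97.9% of basophil-mast-gated cells, Ms4a3 97.9% of granulocyte-monocyte-gated cells, and Ms4a6c 97.0% of monocyte-gated cells.

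The order of the gates was clear for some members and not for others. For Ms4a3, neutrophil, granulocyte-monocyte, basophil-mast, monocyte and megakaryocyte followed each other with every neighbouring ratio beyond counting error, and below these neighbouring gates did not differ beyond it. For Ms4a6c, all neighbours in the order of 9 gates differed beyond counting error but basophil-mast and granulocyte-monocyte, whose ratio was 1.06 (0.970 to 1.16). For Ms4a6b, the dendritic, granulocyte-monocyte, Flt3 and lymphoid-primed, neutrophil and stem gates (39.0 to 20.7 CPM) did not differ between neighbours. For Ms4a2, the order below the basophil-mast gate had no neighbours that differed beyond counting error down to the erythroid gate, and the Flt3 and lymphoid-primed gate had 0 UMIs. For Ms4a6d, the monocyte gate stood 5.91-fold (2.83 to 14.8) above the basophil-mast gate, and no later neighbours differed beyond counting error.

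The first comparison asked which members separate monocyte-marked cells from granulocyte-monocyte-marked cells. Of the 6 members, 4 were past 2-fold higher in the monocyte gate and 1 was past 2-fold lower, a call being a ratio of at least 2 or at most 1/2 with an interval on that side of 1. Over the 10767 genes with at least 50 UMIs in both gates together, 7.04% were past 2-fold higher and 3.23% lower. Ms4a4c was 14.7-fold higher (10.4 to 21.4), Ms4a6d 7.33-fold (4.44 to 12.99), Ms4a6c 4.31-fold (4.11 to 4.52) and Ms4a6b 2.86-fold (2.56 to 3.21). Ms4a3 went the other way, with a ratio of 0.294 (0.287 to 0.302). Ms4a2 had a ratio of 0.837 (0.521 to 1.38) between levels that are both background. The 4 paralogues on the monocyte side thus differed from Ms4a3 in direction, and the median member ratio was 3.59 against 1.06 over all genes tested. Over 12 alternative settings the ratio ranged from 9.21 to 34.4 for Ms4a4c, from 3.83 to 6.88 for Ms4a6c, from 6.31 to 13.5 for Ms4a6d and from 0.119 to 0.379 for Ms4a3, with the same calls.

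The second comparison set the basophil-mast gate against the granulocyte-monocyte gate. Of the 4 members with at least 50 UMIs in both gates together, 2 were past 2-fold higher and 0 lower, where 12.7% of 9567 genes were higher and 7.2% lower. Ms4a2 was 377-fold higher (259 to 573). Ms4a6b was 2.19-fold higher (1.87 to 2.58). Ms4a3 was lower by less than 2-fold, with a ratio of 0.660 (0.636 to 0.686), and Ms4a6c had a ratio of 1.06 (0.970 to 1.16). Ms4a4c, on 36 UMIs, had a ratio of 0.258 (0.0506 to 0.822), and Ms4a6d, on 23, one of 1.24 (0.432 to 3.19). The Ms4a6c ratio depended on the gate. Over 12 alternative settings it lay on both sides of 1, from 0.868 to 1.64. It was 1.48 (1.34 to 1.64) with doubled gate limits and 1.64 (1.41 to 1.89) with the even-numbered markers. Basophil-mast-marked cells thus had less Ms4a3 than granulocyte-monocyte-marked cells, and Ms4a2 in addition. Counted with members of fewer UMIs, Ms4a4c would be called too. Without the cells that had a dendritic list UMI its ratio was as low, at 0.255, but the interval (0.0293 to 1.02) reached 1. The Ms4a2 ratio rests on a background denominator of 27 UMIs, of which 11 were in 1 cell, and was 761 (445 to 1431) without the cells that Scrublet called doublets.

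The third comparison set the basophil-mast gate against the monocyte gate. Of the 6 members, 2 were past 2-fold higher and 3 lower, where 11.1% of 10657 genes were higher and 9.52% lower. Ms4a2 was 450.6-fold higher (347 to 596; 1030 without Scrublet calls) and Ms4a3 2.25-fold higher (2.16 to 2.33). The ratio was 0.0176 (0.00362 to 0.0515) for Ms4a4c, 0.169 (0.0675 to 0.353) for Ms4a6d and 0.246 (0.228 to 0.265) for Ms4a6c. Ms4a6b stood at 0.767 (0.674 to 0.869), so it was lower by less than 2-fold. The Ms4a3 call is near the limit: the ratio was 1.94 (1.87 to 2.01) with halved gate limits and 1.25 (1.21 to 1.29) between graph clusters named from the same markers, and 4.10 (3.78 to 4.44) with the even-numbered markers alone.

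**Figure D3:**
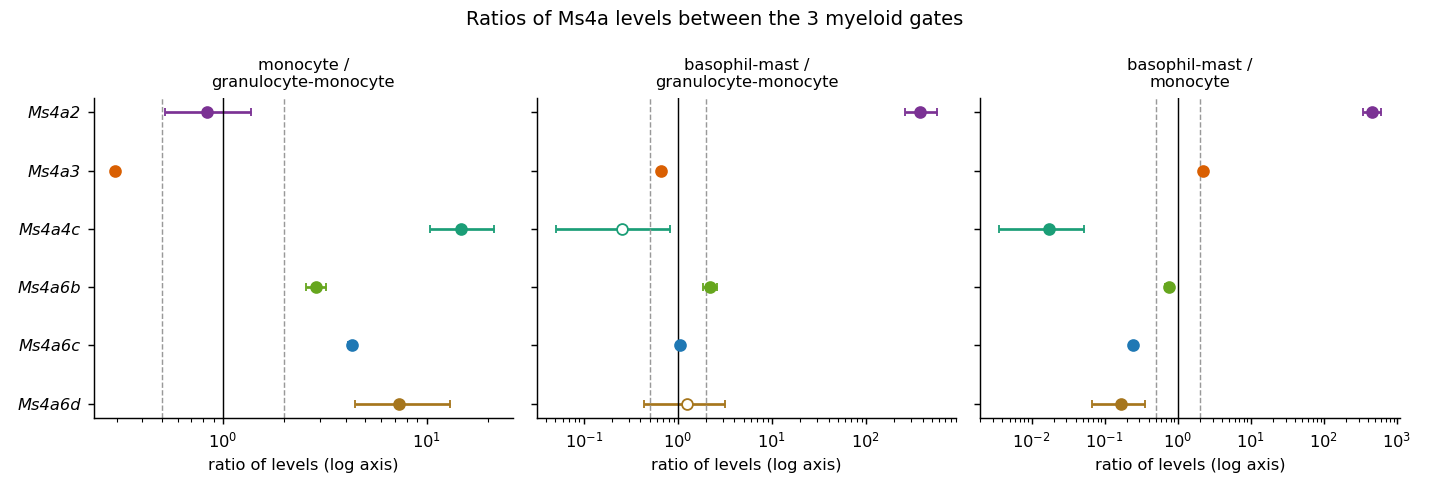
Ratios of Ms4a levels between gates (log axis) with exact conditional binomial 95% intervals, in 1 panel per pair of gates. The solid line is a ratio of 1, the dashed lines are 2-fold, and open circles have fewer than 50 UMIs in both gates together. Ms4a3 lies to the left in the first panel (0.294) and to the right in the third (2.25), opposite to Ms4a4c, Ms4a6c and Ms4a6d.

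Taking the 6 genes as a pool of counted molecules shows how each gate used the family. A 3′ library counts each captured molecule once whatever its length, but genes can differ in capture, which was not tested. The summed level was 1601 CPM in the granulocyte-monocyte gate, 1334 in the monocyte gate, 2155 in the basophil-mast gate and 28.6 in the erythroid gate. Ms4a3 made up 86.3% (85.7 to 86.8) of the pool in the granulocyte-monocyte gate, 96.4% (96.1 to 96.6) in the neutrophil gate, 42.3% (41.2 to 43.4) in the basophil-mast gate and 30.5% (29.97 to 30.9) in the monocyte gate. Ms4a2 made up 45.3% (44.2 to 46.4) in the basophil-mast gate and 0.162% in the monocyte gate. Ms4a6c made up 57.8% (57.3 to 58.3) in the monocyte gate and 76.5% (73.4 to 79.4) in the dendritic gate. The myeloid gates thus differed in which members led, and the erythroid gate had little of any.

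**Figure D4:**
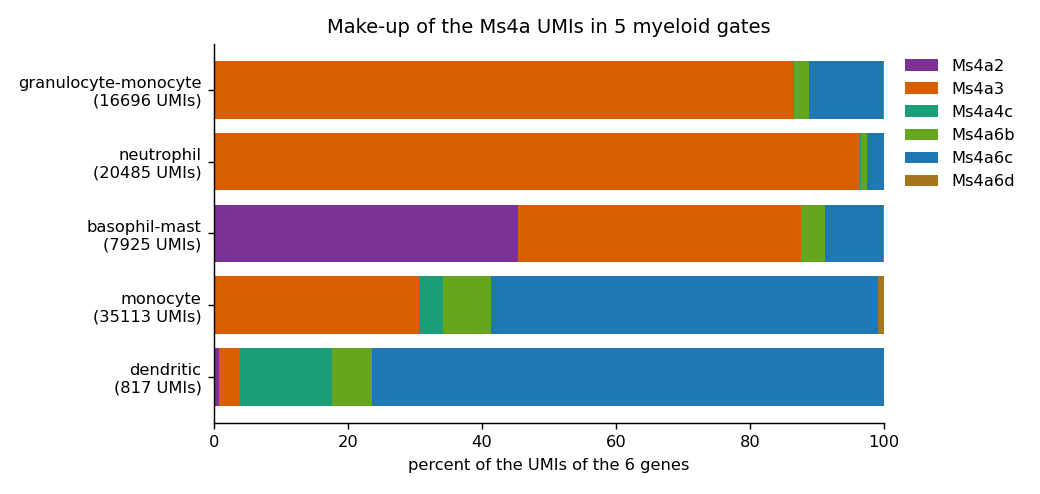
Make-up of the UMIs of the 6 Ms4a genes in 5 myeloid gates, in percent of the UMIs given beside each gate, as stacked bars from 0 to 100. Ms4a3 leads in the granulocyte-monocyte and neutrophil gates (86.3% and 96.4%), Ms4a2 and Ms4a3 together in the basophil-mast gate, and Ms4a6c in the monocyte and dendritic gates.

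Members were found together in single cells. At 5000 UMIs a cell, 259 of 283 basophil-mast-gated cells (91.5%, 87.6 to 94.5) had a UMI of both Ms4a2 and Ms4a3, and 749 of 1219 monocyte-gated cells (61.4%, 58.6 to 64.2) one of both Ms4a3 and Ms4a6c. In the granulocyte-monocyte gate 185 of 423 cells (43.7%, 39.0 to 48.6) had both Ms4a3 and Ms4a6c. In the monocyte gate, Ms4a6c was found in 96.6% of the cells with Ms4a3 and in 97.7% of those without it, and Ms4a4c in 19.1% and 23.6%. With Ms4a6c found in nearly every cell of this gate, these shares cannot show whether the levels of both genes moved together. Exactly 1 member was found in 48.2% (43.4 to 53.1) of granulocyte-monocyte-gated, 16.7% (14.7 to 18.9) of monocyte-gated and 3.89% (1.96 to 6.85) of basophil-mast-gated cells. None was found in 7 of the 1219 monocyte-gated cells and in 0 of the other gates' 423 and 283, against 92.1% (90.4 to 93.7) of erythroid-gated cells. Among erythroid-gated cells, 30.5% of the 59 with Ms4a3 also had Ms4a6c, against 1.79% of those without Ms4a3. Scrublet called 45 of the 1119 erythroid-gated cells doublets, and their part in these values was not tested.

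Within the monocyte gate the members followed the granule program in opposite directions. The cells were ordered by their share of UMIs in Mpo, Elane, Prtn3 and Ctsg and split into 4 equal groups, in which these genes rose from 4018 to 23406 CPM. Ms4a3 rose with them through 47.5 (42.2 to 53.4), 265 (253 to 278), 466 (450 to 483) and 809 CPM (787 to 830), a ratio of 17.0 (15.1 to 19.2) between the top and the bottom group. Ms4a4c went from 62.2 (56.1 to 68.9) to 25.6 (22.0 to 29.7), a ratio of 0.412 (0.342 to 0.494). Ms4a6b and Ms4a6c fell less, with ratios of 0.635 (0.566 to 0.712) and 0.716 (0.687 to 0.746). Ms4a6d was highest in the second group, at 16.2 CPM (13.3 to 19.5), against 8.42 in the first and 8.39 in the last. Ms4a2 stayed at background, between 1.47 and 3.23 CPM. Monocyte-marked cells poor in granule transcripts thus had little Ms4a3 and the highest levels of Ms4a4c, Ms4a6b and Ms4a6c.

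The same groups differed in other ways. The bottom granule group had 69.0 CPM of the dendritic list (Siglech, Ccr9, Cd209a, H2-Aa, H2-Ab1, Klrd1), against 19.4 to 23.7 in the others, and 69 of its 305 cells had a UMI of it at 5000 UMIs. The monocyte list fell from 1638 to 992 CPM from the bottom to the top group, and the part of this in the result was not tested. Without the cells that had a dendritic list UMI, a setting added after seeing the data, the ratios were 12.2 (11 to 13.6) for Ms4a3, 0.440 (0.362 to 0.534) for Ms4a4c, 0.641 (0.567 to 0.724) for Ms4a6b, 0.718 (0.687 to 0.750) for Ms4a6c and 0.667 (0.448 to 0.987) for Ms4a6d.

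**Figure D5:**
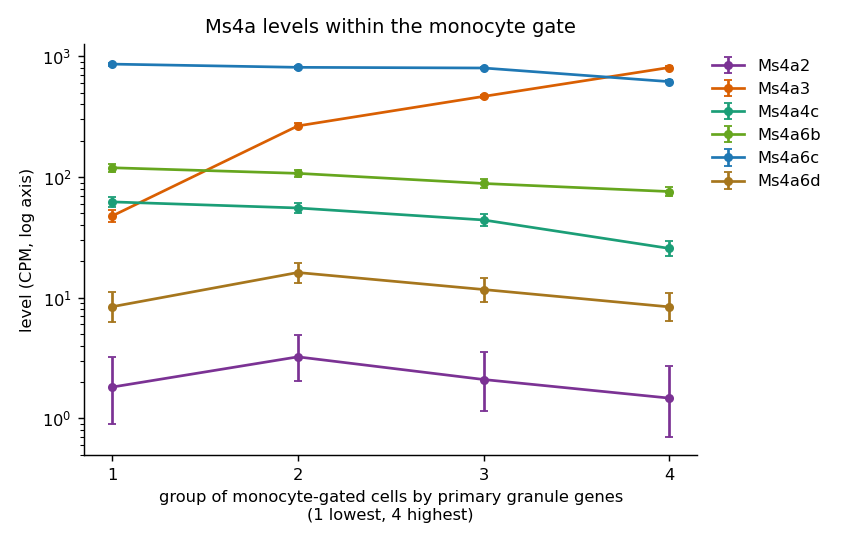
Level of each Ms4a gene (CPM, log axis) in 4 equal groups of monocyte-gated cells, ordered by their share of primary granule UMIs, with exact 95% Poisson intervals. Ms4a3 climbs from 47.5 to 809 CPM while Ms4a4c goes from 62.2 to 25.6.

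The other genes of the IgE receptor pathway were followed through a list of 14 genes. In the basophil-mast gate against the granulocyte-monocyte gate, 7 of 14 were past 2-fold higher and 0 lower, where 12.7% of all genes tested were higher and 7.2% lower, with a median ratio of 2.18 against 1.07 over all genes tested. Fcer1a, the α chain that binds IgE, stood at 1848 CPM in the basophil-mast gate against 1.06 and 1.75 in the granulocyte-monocyte and monocyte gates, as Ms4a2 did. Fcer1g, the signalling γ chain that other Fc receptors share, stood at 1301, 239 and 873 CPM. The adaptor gene Lat was 43.3-fold (26.9 to 74.2), the kinase gene Fyn 12.2-fold (8.60 to 17.7), the adaptor gene Lat2 7.89-fold (6.77 to 9.21), Gab2 4.47-fold (3.12 to 6.46) and the phospholipase gene Plcg1 2.43-fold (1.69 to 3.48) higher. Lat and Fyn were higher still in the megakaryocyte gate (111 and 62.9 CPM, against 74.8 and 46.8 in the basophil-mast gate). Plcg1 was higher in the stem gate (30.3 against 16.3 CPM). Among gates with at least 20 cells, Lat2 (174 CPM) and Gab2 (22.3) were highest in the basophil-mast gate. Lyn and Syk, the kinases that act first at the receptor, had ratios of 1.32 (1.08 to 1.61) and 1.41 (1.16 to 1.71). In the basophil-mast gate against the monocyte gate 5 of 14 were higher and 0 lower, where 11.1% of all genes were higher and 9.52% lower (median ratio 1.39 against 0.988). In the monocyte gate against the granulocyte-monocyte gate 4 were higher and 0 lower, where 7.04% of all genes were higher and 3.23% lower (median 1.51 against 1.06). These 4 were Fcer1g, Lyn, Lat2 and Fyn. Among the 3 compared gates, Fcer1a and Ms4a2 were thus above the erythroid level in the basophil-mast gate alone, and the shared chain was present in all 3. Fcer1a, like Ms4a2, was also found in the eosinophil gate, at 219.5 CPM (166 to 285). It was low in the megakaryocyte gate, at 8.36 (6.40 to 10.7), and in the stem gate, at 5.56 (4.03 to 7.49). In the stem gate 1 cell held 19 of the 43 Fcer1a UMIs, and for Ms4a2 1 cell held 18 of 48.

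The cell cycle list tied to Ms4a3 had few calls. Of Cdkn3, Cdk2, Ccna2, Ccne1 and Ccne2, 0 of 5 were past 2-fold between the monocyte and granulocyte-monocyte gates or between the basophil-mast and granulocyte-monocyte gates. Between the basophil-mast and monocyte gates 1 was lower, the cyclin gene Ccne1, with a ratio of 0.388 (0.255 to 0.567). With 5 genes, such counts are near the shares of all genes called (from 3.23% lower to 12.7% higher) and are no result about the list. Cdkn3 stood at 51.8 CPM in the monocyte, 47.0 in the basophil-mast and 26.4 in the granulocyte-monocyte gate, while Ms4a3 was highest in the last.

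Of the 13 other Ms4a genes, 7 had 0 UMIs and 5 had 1 to 49 in the 7546 cells, among them Ms4a1 (27 UMIs), which encodes CD20 of B cells. Ms4a4b alone passed 50, with 1278 UMIs. Its levels of 29.1 CPM in the monocyte gate, 10.6 in the basophil-mast gate and 2.59 in the granulocyte-monocyte gate had the order of those of Ms4a6b, and the monocyte gate was 11.3-fold (7.67 to 17.2) above the granulocyte-monocyte gate. The related membrane genes Tmem176a and Tmem176b were highest, among gates with at least 20 cells, in the stem gate, at 256 and 437 CPM, and differed by less than 2-fold between the 3 compared gates.

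The genes most like each member were taken from 11507 candidate genes by Pearson r of log2(CPM + 10) over the 9 gates with at least 20 cells, which share 1 library and differ in depth. Ms4a2 was closest to Cdh1 (E-cadherin), Il6 and Alox15 (r 0.996 each). Ms4a3 was closest to 1700020L24Rik (0.990), Ttc39c (0.975) and Srp9 (0.974). For Ms4a4c the closest were Ptpro (0.994), the interferon-inducible Ifi204 (0.993) and the lectin gene Clec4b1 (0.986). For Ms4a6b they were Diaph2 (0.967), Prkcd (0.954) and Tmem150b (0.946), and for Ms4a6c Rassf4 (0.979), Npc2 (0.968) and Dnajb6 (0.961). Ms4a6d was closest to Adgre1 (0.979), which encodes the macrophage antigen F4/80, 1700012B09Rik (0.975) and C1galt1c1 (0.973). Among the members themselves, Ms4a6b and Ms4a6c were most alike (0.909), followed by Ms4a4c and Ms4a6c (0.761), while the neighbours Ms4a2 and Ms4a3 had an r of 0.344. With 9 points these values describe the library and no more.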

How the data were processed

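The deposited file used is the count matrix of 1 library, sorted bone marrow progenitors of control mice. The authors deposited raw UMI counts as called by Cell Ranger (version 6.0.2 and build mm10 in the submitters' processing notes), before their own cell filter. That filter was applied as the methods state it: UMIs between 1000 and 50000, genes between 1000 and 6500, and a mitochondrial share below 7%. Kept cells had 1592 to 49991 UMIs (median 18696). To gate cells at 1 depth, each was thinned at random to 5000 UMIs, which left out 99 shallower cells. Doublets were scored with Scrublet (scanpy 1.11.5, 6% expected), which marked 268 cells (3.51%). They were kept, and removed in an alternative.

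A cell entered a gate with at least 2 of its markers detected and at least 60 (granulocyte-monocyte), 4 (monocyte) or 20 (basophil-mast) list UMIs. It could pass no other gate, with 1 exception. Cells of the monocyte, basophil-mast, neutrophil, eosinophil and dendritic gates could also pass the granulocyte-monocyte limit. Later myeloid cells may carry granule genes, and the granulocyte-monocyte gate allowed at most 1 UMI of each later myeloid list. The limits were set on the markers without Ms4a values, and the members and gene lists were chosen with earlier results of these data known. Genes named are the members, other Ms4a genes, Tmem176a, Tmem176b, the IgE receptor and cell cycle lists, and the 3 genes most like each member (at least 200 UMIs, neither markers nor Ms4a genes). Intervals came from scipy 1.17.1 and alignments from Biopython 1.88. Whether counting used strand is not given in the sources used here. The ratio step was tested on simulated data with 200 genes changed 4-fold. The simulated sums were independent Poisson draws without differences between cells, so they check the calculation and give no error rate for the real data. For the monocyte against granulocyte-monocyte comparison (10767 genes) 100% were called in the right direction and 0.114% of unchanged genes were called, for basophil-mast against granulocyte-monocyte (9567 genes) 100% and 0.395%, and for basophil-mast against monocyte (10657 genes) 99% and 0.335%. A second ordering of the monocyte-gated cells is not reported here.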

Additional observations from a re-analysis of the deposited data

How the results depend on the processing

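The number of members past 2-fold stayed within 1.5 times its value in 37 of 37 recalculations. For the monocyte against the granulocyte-monocyte gate the same 5 members were past 2-fold under all 12 alternatives. For the basophil-mast against the granulocyte-monocyte gate, counting members of any UMI total, the number was 3 and ranged from 2 to 3: the Ms4a4c call, on 36 UMIs, was lost with doubled gate limits (0.635), even-numbered markers (0.443), thinned sums (0.897) and without cells carrying dendritic markers (0.255), where in the second and the last the fold stayed past 2 and the interval reached 1, and Ms4a3 was past 2-fold lower (0.488) with the even-numbered markers. For the basophil-mast against the monocyte gate the number was 5, and 4 with halved gate limits or graph clusters, which both lost Ms4a3. Over the alternatives the Ms4a2 ratio ranged from 239 to 1044 against the granulocyte-monocyte gate and from 341 to 1030 against the monocyte gate. The cause of these moves was not tested. Of 222 recalculated ratios 169 stayed in their 95% interval, 53 left it and 0 reversed among the called ones. Of 228 recalculated levels 146 stayed and 82 left. Another random thinning and leaving out cells with dendritic markers were added after seeing the data. Among 19 graph clusters (30 components, 20 neighbours, resolution 1), the 3 with the primary granule list highest stayed unnamed under the naming rule, so that alternative gave no value for the granulocyte-monocyte gate. No paired analysis was possible because there is 1 library, and no replicate could be left out for the same reason. Depth limits Ms4a6d and the low gates of Ms4a4c, where a few UMIs carry a level.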
